A study of Homo sapiens with 2 samples.

Results

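Interferon-stimulated genes are the genes that cells switch on after interferon binds its receptors, and 44 of them were chosen by symbol, with SAMD9 and SAMD9L among them. The list was chosen with earlier results of these data known. Of the 44, 43 had a row among the 28038 genes of the expression table, and 38 had at least 50 counts over both libraries, the minimum for a ratio. Poly(A) RNA was sequenced from 2 cultures labelled OVCAR-3, a long-established cell line from a human ovarian carcinoma. The control culture carried an empty viral vector, and the other overexpressed IGF2BP3, which binds transcripts that carry m6A marks. How the vector drives IGF2BP3, and whether either culture was a single clone, is not given in the sources used here, and no interferon treatment is named in the labels. With 1 library per group there is no replicate error and no test, so every ratio below compares these 2 libraries and its interval covers counting error only.

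Type I interferons (the alpha and beta family) and type III interferons (the lambda family) bind cell surface receptors whose JAK kinases phosphorylate STAT proteins. STAT2 is part of a complex with IRF9 called ISGF3, which enters the nucleus and binds a DNA element in the promoters of its target genes. The products block viral entry, sense or degrade foreign RNA, stop translation or tag proteins with the ubiquitin-like protein ISG15. Many epithelial and tumour cell lines keep some of these genes on without added interferon.

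The libraries held 43190215 counts (control) and 48017861 counts (overexpression), and the 43 listed members took 0.204% and 0.217% of them. IGF2BP3 itself went from 2944 to 6376 counts, a ratio of 1.96 (counting interval 1.88 to 2.05). Of 16 epithelial and ovarian serous carcinoma markers, 10 had a row and only KRT18 reached 10 CPM (a gene's count scaled to its library's total); PAX8 had 28 and 32 counts and CDH1 2 and 2. The 8 listed leukocyte markers, of 13 chosen, summed to 1.45 CPM in the control and 1.38 CPM in the overexpression library, and none reached 10 CPM; PTPRC, the pan-leukocyte antigen CD45, had 0 and 4 counts.

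Promoters of these genes are shown first, because the DNA element that ISGF3 binds is what the family is known to share. RefSeq promoters of GRCh38.p14, 250 bases before to 50 after the gene start, were held for 37 of the 44 genes. The motif searched was GAAANNGAAA on either strand (TTTCNNTTTC when read on the other strand), the core of the interferon-stimulated response element. It was present in 25 of these 37 genes (67.6%), against 4.38% of the 27305 genes with a promoter in the table. A shorter form that lies within every full match, AAANNGAAA on either strand, was present in 29 of the 37 (78.4%) and in 12.6% of all genes. The first sequences belong to the SAMD9 pair, whose ratios were the highest, to IFITM1, and to BST2, the most abundant member, whose ratio was close to 1. Capitals mark the motif, and in SAMD9L, which holds only the shorter form, they mark AAANNGAAA.
SAMD9 (chr7:93117930-93118229, minus strand): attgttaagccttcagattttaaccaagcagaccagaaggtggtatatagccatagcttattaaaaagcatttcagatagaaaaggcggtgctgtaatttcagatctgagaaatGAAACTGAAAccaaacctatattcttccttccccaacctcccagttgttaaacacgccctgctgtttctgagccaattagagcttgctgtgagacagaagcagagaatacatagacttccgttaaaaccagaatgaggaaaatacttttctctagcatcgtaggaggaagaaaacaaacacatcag
SAMD9L (chr7:93148336-93148635, minus strand): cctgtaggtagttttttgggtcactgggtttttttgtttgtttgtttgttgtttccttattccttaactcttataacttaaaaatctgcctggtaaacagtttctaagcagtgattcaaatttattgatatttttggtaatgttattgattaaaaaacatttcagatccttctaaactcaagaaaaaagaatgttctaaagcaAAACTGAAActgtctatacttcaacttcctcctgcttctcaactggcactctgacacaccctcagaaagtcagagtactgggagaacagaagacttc
IFITM1 (chr11:313790-314089, plus strand): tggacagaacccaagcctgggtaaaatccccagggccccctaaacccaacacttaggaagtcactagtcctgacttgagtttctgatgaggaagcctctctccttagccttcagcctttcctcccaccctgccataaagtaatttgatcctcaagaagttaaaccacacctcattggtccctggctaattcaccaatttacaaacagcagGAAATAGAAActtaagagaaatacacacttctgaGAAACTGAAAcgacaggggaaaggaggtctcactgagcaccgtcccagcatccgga
BST2 (chr19:17405581-17405880, minus strand): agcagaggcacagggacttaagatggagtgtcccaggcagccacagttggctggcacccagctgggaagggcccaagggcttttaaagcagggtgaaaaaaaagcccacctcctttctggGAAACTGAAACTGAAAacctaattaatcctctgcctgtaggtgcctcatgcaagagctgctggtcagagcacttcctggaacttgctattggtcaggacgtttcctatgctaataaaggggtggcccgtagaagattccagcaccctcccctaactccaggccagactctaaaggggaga

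The match in SAMD9 began 136 bases before the gene start, and the shorter match in SAMD9L began 47 bases before it. IFITM1 held 2 matches, and in BST2 2 matches overlapped. Stretches of 60 bases show how the motif is arranged in 4 further members, 2 with several copies and 2 close to the start or overlapping.
IFIT1 (chr10:89392488-89392547, plus strand): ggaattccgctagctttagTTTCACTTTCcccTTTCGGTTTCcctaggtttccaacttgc
IFIT5 (chr10:89414518-89414577, plus strand): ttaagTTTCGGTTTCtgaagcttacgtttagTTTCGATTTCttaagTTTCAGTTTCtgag
ISG15 (chr1:1013362-1013421, plus strand): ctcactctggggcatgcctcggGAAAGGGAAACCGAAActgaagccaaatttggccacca
EIF2AK2 (chr2:37156952-37157011, minus strand): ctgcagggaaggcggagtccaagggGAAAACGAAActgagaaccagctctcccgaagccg

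IFIT5 held 3 matches, IFIT1 and ISG15 2 each, and EIF2AK2 1 match that began 6 bases before the gene start. Among measured members with a promoter in the table, the 22 with GAAANNGAAA had ratios from 0.758 to 2.59 with a median of 1.12, and the 11 without it had ratios from 0.929 to 1.95 with a median of 1.09. The ranges overlapped over most of their length, and the 2 highest ratios fell one in each class. A match describes the letters in this window and not binding.

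Most members differed little between the libraries. The median ratio of the 38 measured members was 1.11 (0.16 on the log2 scale), beside 1.0 (0.00) over all 14157 genes with 50 or more counts. Ratios above 1 were found in 27 of 38 members (71.1%), against 51.1% of all measured genes. The ratio was 1.5 or more in 4 members (10.5%), against a background of 3.52% of all measured genes, and none was 1.5-fold lower, against 2.72%. The 4 were SAMD9, SAMD9L, OAS2 and XAF1. All 4 lay among the 13 measured members with fewer than 1000 counts in all, a range in which 8.5% of all genes were at least 1.5-fold higher. The count fell to 2, SAMD9 and SAMD9L, when 1 CPM was added to both values, a scale on which 1.02% of all measured genes passed. At a ratio of 5 to 4 or more, 9 members (23.7%) passed, against 8.51% of all measured genes, and 1 (2.63%) was lower by as much, against 7.58%. At 2-fold or more only SAMD9 passed (2.63%), against 0.982%, and no member was 2-fold lower, against 0.798%. Because the list was chosen with earlier results known, the members' shares describe it and are not independent support.

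The counting interval lay wholly above 1 in 17 members (44.7%), against 22.8% of all measured genes, and wholly below 1 in 1 member (2.63%), against 18.6%. The other 20 intervals included 1. Low counts were even more often than odd, so intervals were also computed from halved counts. Halving left 14 members above 1, against 15.9% of all genes, and 1 below, against 10.9%. ISG15, HERC6 and IFIT3 were the 3 whose intervals then reached below 1.

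**Figure D1:**
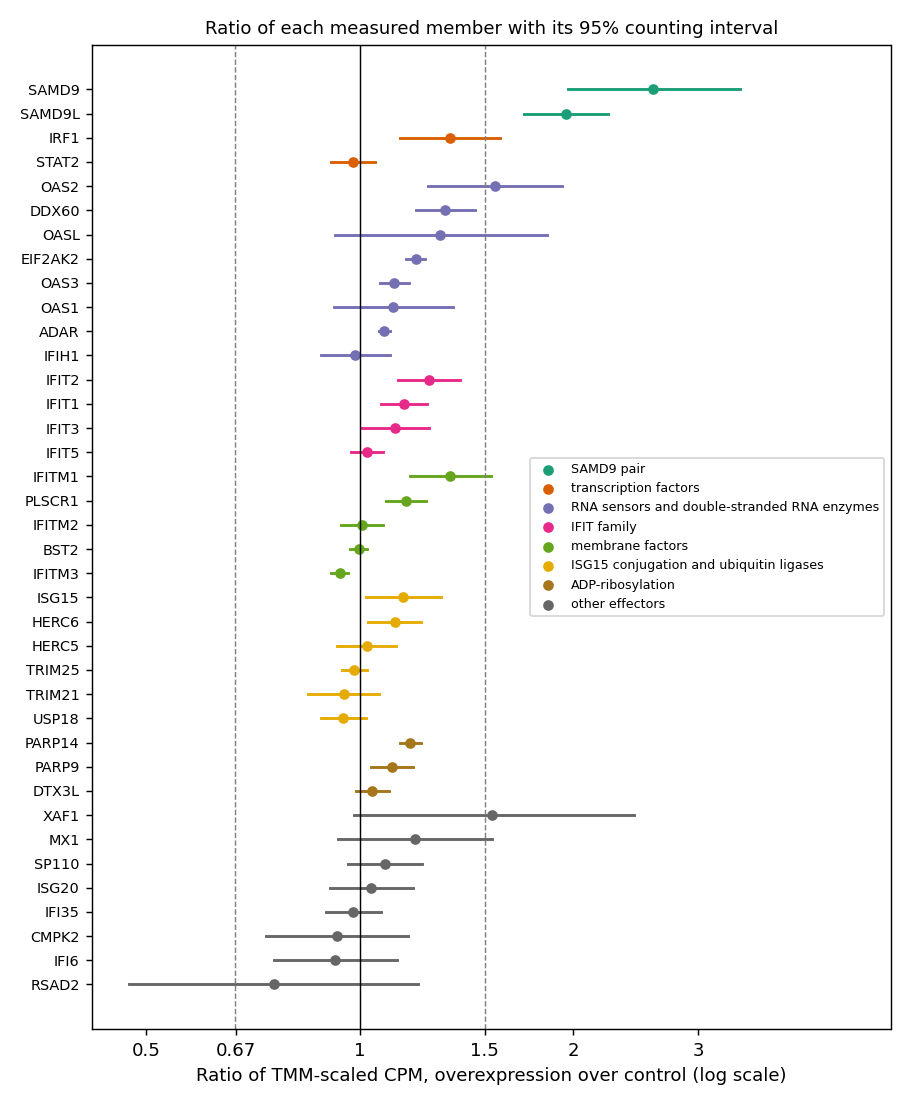
Ratio of TMM-scaled CPM, overexpression over control, on a log axis for the 38 measured members, coloured by role; points are ratios, lines 95% counting intervals, and dashed lines mark 1.5-fold in each direction. SAMD9 at 2.59 and SAMD9L at 1.95 stand to the right of the other members, most of which lie between 0.92 and 1.34.

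SAMD9 and SAMD9L are neighbouring, related genes whose large cytoplasmic proteins restrict poxviruses and curb cell growth. SAMD9 (ENSG00000205413) went from 71 to 203 counts, or from 1.64 to 4.24 CPM. Its ratio was 2.59 (interval 1.97 to 3.44, and 1.75 to 3.91 with halved counts). SAMD9L (ENSG00000177409) had 308 and 664 counts, or 7.11 and 13.9 CPM, a ratio of 1.95 (1.70 to 2.24; 1.61 to 2.38 from halved counts). In both genes the intervals stayed above 1.5-fold. Of the 500 genes nearest in total count, 4 had a ratio at least as high as that of SAMD9 and 4 as that of SAMD9L. Both were low per unit of length, at 0.240 and 0.617 FPKM (the scaled count per kilobase of gene) for SAMD9 and 0.892 and 1.73 FPKM for SAMD9L. With 5 CPM added to both values the ratios were 1.39 and 1.56, since a constant weighs most on low genes.

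The pair lies on chromosome 7 (GRCh38), SAMD9 from 93099513 to 93118023 and SAMD9L from 93130055 to 93148369, both on the minus strand. The genes share few words: 0.03% of the 31-base words of SAMD9 transcripts and 0.17% of those of SAMD9L occurred in any other annotated gene. Of 20 neighbours listed along this part of the chromosome, 16 were measured. Ratios were above 1 in 12, against 51.1% of all measured genes, and below 1 in 4. The median log2 ratio of the 16 was 0.17, beside 0.00 over all measured genes. At least 1.5-fold higher were 2 of the 16, against 3.52% of all measured genes, and 10 had counting intervals above 1, against 22.8%, and 2 below, against 18.6%. CDK6, a G1 cell cycle kinase whose start lies 281.4 kb away on one side, went from 1090 to 2228 counts, a ratio of 1.85 (1.72 to 1.99). TFPI2, a secreted protease inhibitor 773.0 kb away on the other side, had 367 and 609 counts, a ratio of 1.502 (1.32 to 1.71). VPS50, a membrane trafficking gene that lies between SAMD9L and TFPI2, had 1359 and 1617 counts, a ratio of 1.08 (1.002 to 1.16). The sterol enzyme CYP51A1 followed at 1.37 (1.15 to 1.64), while the endothelial junction regulator KRIT1 stood at 0.873 (0.793 to 0.960) and GATAD1 at 0.917 (0.871 to 0.966). CDK6, SAMD9 and SAMD9L lie next to each other with no other measured gene of the list between them, and TFPI2 is set apart from them by VPS50. Whether the position of the pair has a part in its ratios was not tested.

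**Figure D2:**
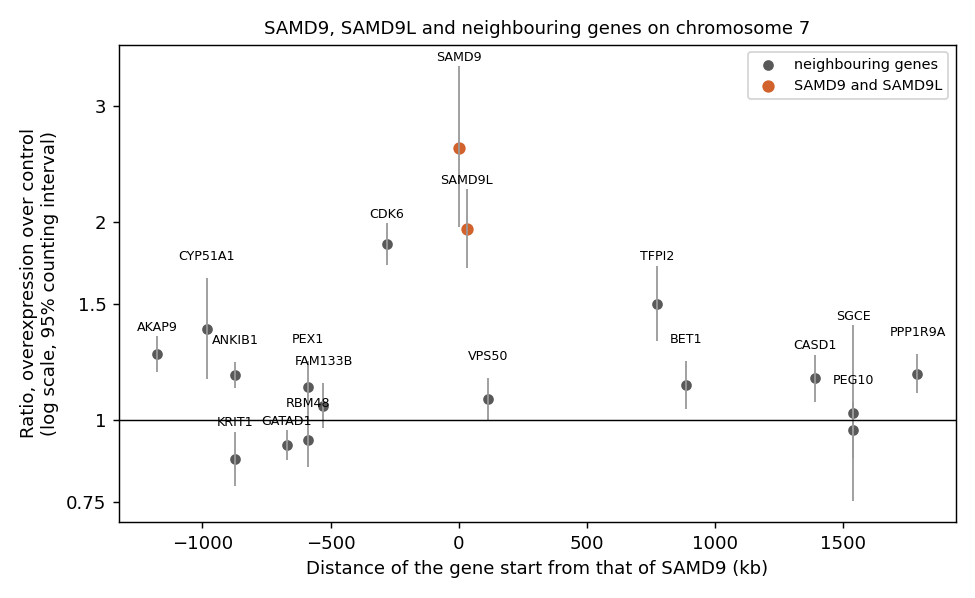
Ratio, overexpression over control (log axis, bars are 95% counting intervals), against the distance in kb of each gene start from that of SAMD9 for the 18 measured genes of the region. SAMD9, SAMD9L, CDK6 and TFPI2 lie at or above 1.5, with VPS50 at 1.08 between them and KRIT1 at 0.873 further out.

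Among the transcription factors of the response, IRF1, which is itself induced by interferon and activates many of its targets, went from 256 to 379 counts, a ratio of 1.34 (1.14 to 1.58), and 22.0% of its exon bases lie opposite other genes, whose reads can be told apart only where strand is counted. STAT2, the ISGF3 subunit, had 1429 and 1544 counts, a ratio of 0.978 (0.910 to 1.05). IRF9, which gives ISGF3 its DNA contact, had 4 counts in the control and 1 in the overexpression library. IRF7, the amplifier of interferon production, was not among the genes listed. A gene at 0 in both libraries has no row, but why IRF7 has none is not given in the sources used here. In GENCODE 29, 48.4% of the exon bases of IRF9 are shared with the same-strand gene AL136295.5, and RNF31, the neighbour that precedes it, had 2 and 3 counts. How the counting treated reads that fall in 2 genes is not given in the sources used here, so a low count of IRF9 and a lack of its transcript cannot be told apart.

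The RNA sensors and double-stranded RNA enzymes had ratios from 0.986 to 1.55, with 7 of 8 above 1, against 51.1% of all measured genes, and 5 intervals above 1, against 22.8%. OAS1, OAS2, OAS3 and OASL belong to the oligoadenylate synthetase family, whose catalytic members make a short second messenger when they bind double-stranded RNA. OAS2 had 135 and 231 counts, a ratio of 1.55 (1.247 to 1.93; 1.14 to 2.12 from halved counts), and 18 of the 500 genes nearest in total count had a ratio as high. OAS1 had 198 and 244 counts at 1.12 (0.921 to 1.35), and OAS3 had 3052 and 3772 counts at 1.12 (1.07 to 1.17). The 3 genes adjoin on chromosome 12, and the interval of OAS2 lay above that of OAS3, though not with halved counts, and overlapped that of OAS1. OASL, a family member that lacks synthetase activity, had 60 and 86 counts at 1.30 (0.922 to 1.84).

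DDX60, a helicase that promotes RNA sensing, had 712 and 1038 counts, a ratio of 1.32 (1.20 to 1.45), and 9 of the 500 genes nearest in total count had a ratio as high. EIF2AK2, which encodes the kinase PKR that halts translation on double-stranded RNA, had 6890 and 9124 counts at 1.20 (1.16 to 1.24). ADAR, the adenosine deaminase that edits double-stranded RNA, had the most counts of any member, 24057 and 28782, at 1.08 (1.07 to 1.10). IFIH1, which encodes the sensor MDA5, had 597 and 650 counts at 0.986 (0.881 to 1.10). The enzymes with the most counts thus had ratios of at most 1.20, and MDA5 did not differ beyond counting error.

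The IFIT proteins bind viral RNA ends and block its translation. IFIT2 had 663 and 916 counts, a ratio of 1.251 (1.13 to 1.38), and IFIT1 had 1240 and 1583 counts at 1.16 (1.07 to 1.246). IFIT3, which stabilises IFIT1 on RNA, had 613 and 760 counts at 1.12 (1.01 to 1.2504; 0.963 to 1.31 from halved counts). IFIT5, with the most counts of the family at 2701 and 3052, stood at 1.02 (0.971 to 1.08). The 4 genes are neighbours on chromosome 10 and their order by ratio was not that by level.

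The membrane factors held the highest levels per length and both directions. BST2, the tether that holds budding virions at the cell surface, stood first at 199 and 197 FPKM, from 9454 and 10411 counts, with a ratio of 0.997 (0.969 to 1.02). The IFITM proteins hinder virus fusion in endosomes and at the surface. IFITM3 followed at 85.7 and 79.7 FPKM, from 10525 and 10889 counts, and was the member whose interval lay below 1, at 0.937 (0.912 to 0.962). IFITM2 had 1549 and 1724 counts at 1.01 (0.940 to 1.08), and IFITM1 387 and 574 counts at 1.34 (1.18 to 1.53). The intervals of IFITM1 and IFITM3 did not overlap. These are close copies: 35.3% of the 31-base words of IFITM1, 45.2% of those of IFITM2 and 36.4% of those of IFITM3 occurred in another annotated gene, so the share of reads given to each is uncertain. In IFITM3, 21.3% of the exon bases also lie opposite another gene. PLSCR1, a scramblase that restricts virus entry, had 1659 and 2132 counts at 1.16 (1.09 to 1.24).

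**Figure D3:**
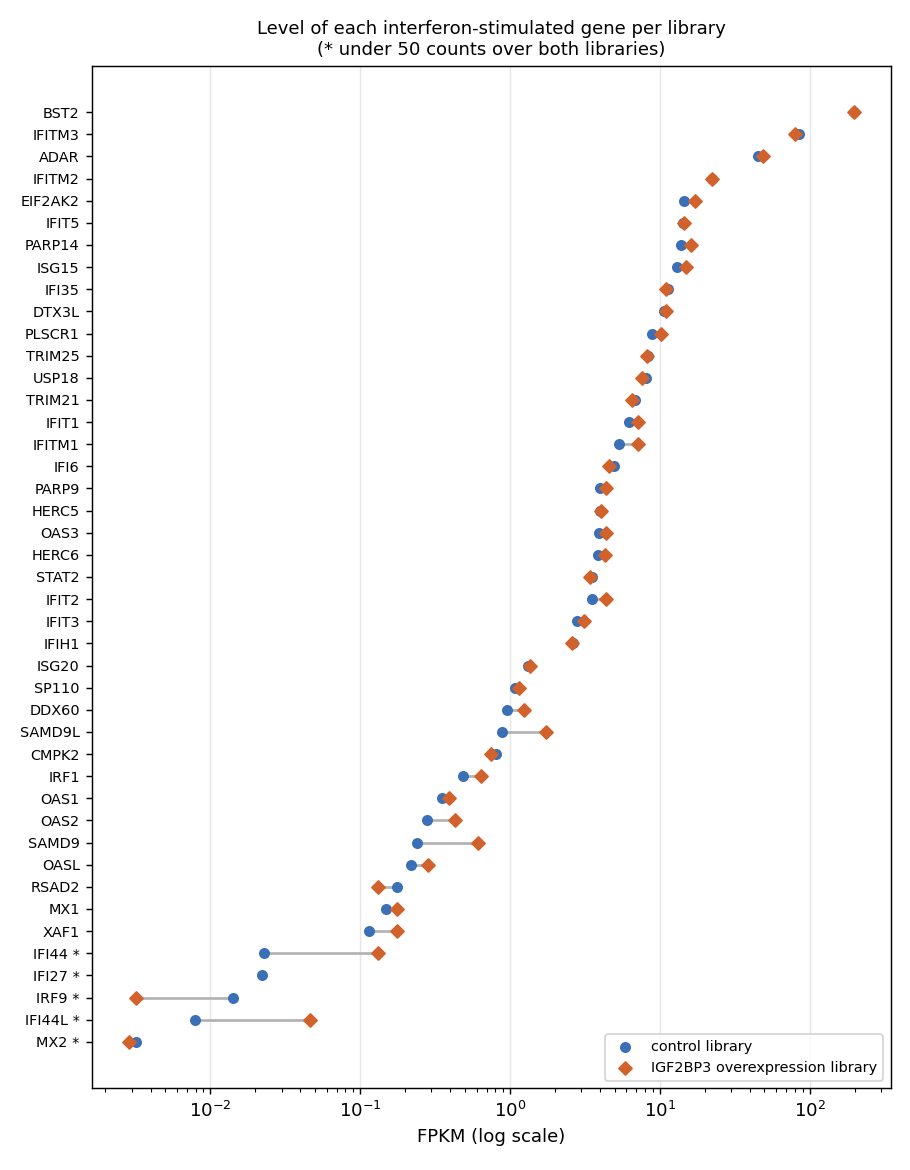
FPKM (log axis) of the 43 listed members in the control library (circles) and the overexpression library (diamonds), ordered by control level; IFI27 was at 0 in the overexpression library and has no diamond, and asterisks mark members under 50 counts. Levels run from 199 FPKM for BST2 to 0.00318 FPKM for MX2 in the control library, and the wider gaps lie among the low members.

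The 6 genes grouped as ISG15 conjugation and ubiquitin ligases had ratios from 0.949 to 1.15. Of these, 3 were above 1, against 51.1% of all measured genes, and 3 below. ISG15 itself had 487 and 620 counts, a ratio of 1.15 (1.02 to 1.30; 0.971 to 1.37 from halved counts). HERC5, the main ligase that attaches ISG15, had 817 and 923 counts at 1.02 (0.930 to 1.12), and its relative HERC6 970 and 1200 counts at 1.12 (1.03 to 1.22). USP18, which removes ISG15 and dampens receptor signalling, had 1439 and 1508 counts at 0.949 (0.882 to 1.02), with 30.8% of its 31-base words found in another annotated gene, most of them in USP41. The ubiquitin ligases TRIM25, at 0.982 (0.943 to 1.02), and TRIM21, at 0.949 (0.845 to 1.07), were also within counting error of 1.

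PARP9 and DTX3L form a complex that couples ADP-ribosylation to ubiquitin transfer, and PARP14 is a mono-ADP-ribosyltransferase. PARP14 had 6162 and 8021 counts, a ratio of 1.18 (1.14 to 1.22), PARP9 1536 and 1886 counts at 1.11 (1.04 to 1.19) and DTX3L 2644 and 3043 counts at 1.04 (0.989 to 1.10). PARP9 and DTX3L start next to each other on opposite strands of chromosome 3, and their intervals overlapped.

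None of the 8 remaining measured effectors had a counting interval on one side of 1, against 22.8% of all measured genes above it and 18.6% below. XAF1, a pro-apoptotic antagonist of XIAP, had 33 and 56 counts, a ratio of 1.54 (0.982 to 2.44), so it passed 1.5-fold with an interval that included 1, and 38.3% of its exon bases lie opposite the gene PRAL. MX1, a GTPase that traps viral nucleocapsids, had 115 and 152 counts at 1.20 (0.933 to 1.54). SP110, a nuclear body protein, stood at 1.09 (0.962 to 1.23), and 20.9% of its exon bases lie opposite other genes. The exonuclease ISG20 stood at 1.04 (0.907 to 1.19), IFI35 at 0.979 (0.896 to 1.07), and the mitochondrial protein gene IFI6 at 0.923 (0.756 to 1.13). RSAD2, which encodes the antiviral enzyme viperin, had 43 and 36 counts, a ratio of 0.758 (0.473 to 1.21), the lowest among the measured members. CMPK2, a nucleotide kinase gene that starts beside RSAD2 on chromosome 2, had 153 and 157 counts at 0.929 (0.739 to 1.17).

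Of the 43 listed members, 38 had 50 or more counts over both libraries, beside 14157 of all 28038 genes. The other 5 had fewer and have no ratio. MX2 had 2 counts in each library, IFI27 4 and 0, and IRF9 4 and 1. With a floor of 3 counts, a gene at 0 may still lie under 0.0692 CPM (control) or 0.0627 CPM (overexpression). IFI44 had 2 counts in the control and 13 in the overexpression library, and IFI44L, beside it on chromosome 1, had 4 and 26. Both thus had more counts in the overexpression library, at levels of at most 0.133 FPKM and 0.0466 FPKM. IRF7 adds a sixth member with no value.

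Differences between the libraries were set out by level as well. The 10 members at 10 FPKM or more in both libraries had ratios from 0.937 to 1.20, with a median of 1.03. The 17 at 1 FPKM or more in both, outside those 10, had ratios from 0.923 to 1.34, with a median of 1.09. The 11 measured members under 1 FPKM in at least 1 library had ratios from 0.758 to 2.59, with a median of 1.32. Of these, 9 were above 1, against 51.1% of all measured genes. They held all 4 members at least 1.5-fold higher, a fold that 3.52% of all measured genes passed. No share was computed over all genes of this FPKM level. Ratios of low genes also scattered more widely over the whole library, in both directions, whereas no member was 1.5-fold lower, against 2.72% of all measured genes.

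**Figure D4:**
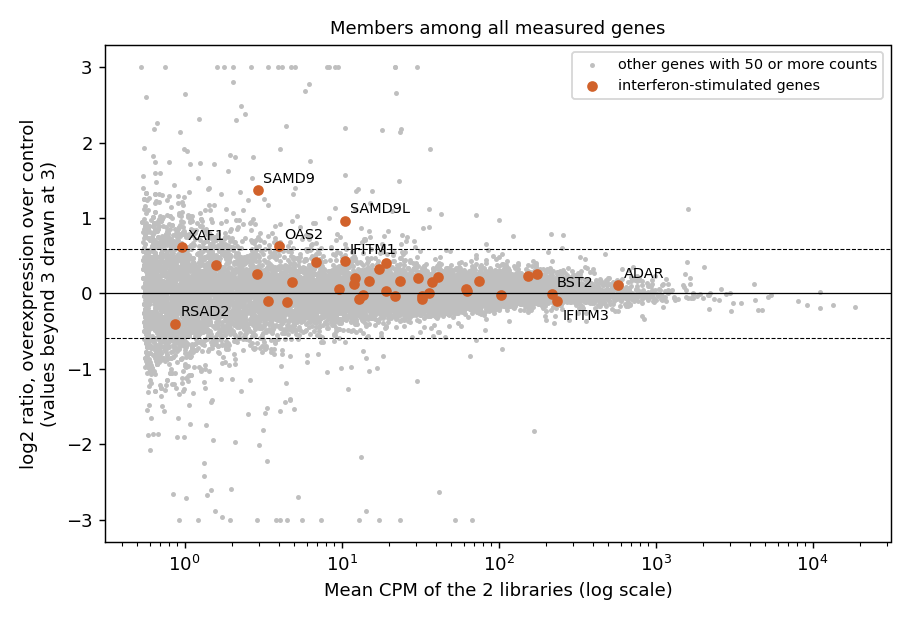
Log2 ratio, overexpression over control, against mean CPM of both libraries (log axis) for all measured genes (grey) and the 38 members (orange); dashed lines mark 1.5-fold, and values beyond 3 are drawn at 3. The spread of grey points narrows with level, and SAMD9 and SAMD9L lie near its upper edge while ADAR and BST2 lie close to 0.

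The steps upstream of these genes were read from further lists, described by counts and medians. Of the interferon ligand genes only 5 had a row. IFNE, the epithelial type I interferon, had 52 and 55 counts, a ratio of 0.957 (0.643 to 1.43), and IFNB1 had 0 and 2 counts, IFNA14 2 and 3, and IFNA16 and IFNA17 each 2 and 0. The 11 receptor and JAK-STAT genes were all measured, with 6 ratios above 1, against 51.1% of all measured genes, and 5 below. Their median log2 ratio was 0.04. None was 1.5-fold higher and 1 was lower, against 3.52% and 2.72% of all measured genes. IFNAR1 stood at 0.983 (0.945 to 1.02) and JAK1 at 1.03 (0.997 to 1.07). The 3 furthest from 0 were low in counts: IFNGR2, a subunit of the interferon-gamma receptor, with 60 and 34 counts at 0.513 (0.327 to 0.794), IL10RB, shared by the lambda receptor, with 28 and 38 counts at 1.23 (0.734 to 2.08), and IFNAR2 with 279 and 275 counts at 0.892 (0.753 to 1.06).

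Of the nucleic acid sensors, adaptors and kinases, 15 had a row and 11 were measured, with a median log2 ratio of 0.02. Ratios were above 1 in 6, against 51.1% of all measured genes, and below 1 in 5. RIGI, the cytosolic RNA sensor, had 20 and 40 counts at 1.81 (1.03 to 3.27; 0.809 to 4.33 from halved counts). The adaptor MYD88 had 34 and 20 counts at 0.533 (0.290 to 0.952; 0.218 to 1.23 from halved counts). The DNA sensor CGAS had 6 and 4 counts and IFI16 4 and 12, below the minimum. Counting intervals lay above 1 in 4 of the 11, against 22.8% of all measured genes, and below 1 in 1, against 18.6%. The kinase TBK1 had 4998 and 6248 counts at 1.13 (1.09 to 1.17; 1.07 to 1.19 from halved counts). The adaptor TICAM1 had 507 and 661 counts at 1.18 (1.05 to 1.33), and its interval from halved counts included 1. The intervals of the mitochondrial adaptor MAVS, at 1.01 (0.978 to 1.05), and IRF3, at 0.953 (0.903 to 1.005), included 1. Negative regulators, 15 measured with ISG15 and USP18 among them, had a median log2 ratio of 0.02. None was past 1.5-fold, against 3.52% of all measured genes higher and 2.72% lower. Their counting intervals lay above 1 in 4, against 22.8% of all measured genes, and below 1 in 4, against 18.6%. PIAS1, an inhibitor of STAT signalling, stood at 1.22 (1.15 to 1.30), SOCS3 at 0.861 (0.768 to 0.964) and ISG15 as given above.

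A wider list of other interferon-stimulated genes, none of them a member, gave 48 measured genes with a median log2 ratio of 0.05. Ratios were above 1 in 29, against 51.1% of all measured genes, and below 1 in 19. At least 1.5-fold higher were 3, against 3.52% of all measured genes, and none was 1.5-fold lower, against 2.72%. Besides RIGI these were APOL1, an apolipoprotein gene, with 356 and 619 counts at 1.57 (1.38 to 1.80) and GBP3, a guanylate-binding protein gene, with 206 and 343 counts at 1.51 (1.26 to 1.80). The counting interval lay above 1 in 16 of the 48, against 22.8% of all measured genes, and below 1 in 5, against 18.6%. The list median of 0.05 stood between the 0.16 of the members and the 0.00 of all measured genes, and the difference between the lists was not tested.

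**Figure D5:**
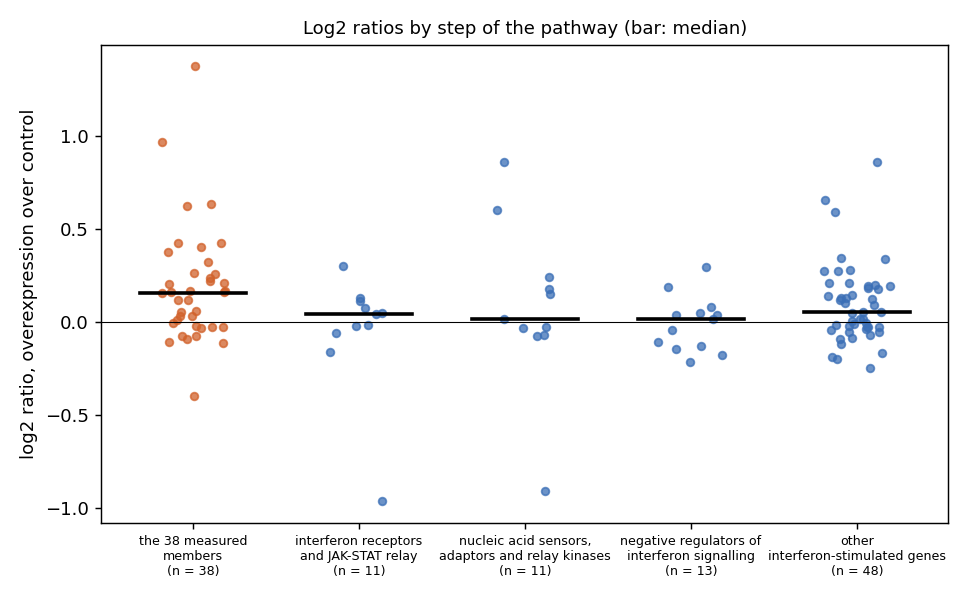
Log2 ratio, overexpression over control, of the 38 measured members and of 4 other lists without members (points are genes, bars medians; some genes appear in 2 lists). The medians are 0.16 for the members and 0.04, 0.02, 0.02 and 0.05 for the others, and points of all 5 groups overlap.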

How the data were processed

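Whole-number counts per gene for 1 control and 1 IGF2BP3-overexpressing library are what the authors deposited, per the file headers, beside FPKM values also computed by them. Log2 fold changes deposited by the authors were not used, and FPKM values served, as the authors deposited them, to compare levels per length. The submitters' processing notes name GRCh38 as the build. Aligner, counter, strand setting and annotation: not given in the sources used here. Libraries were scaled by TMM (edgeR 4.0.16, R 4.3.3). A ratio was computed where the 2 counts summed to 50 or more (14157 genes), with a 95% exact (Clopper-Pearson) interval from the split of its counts. No molecular identifiers are described, so intervals and floors cover counting error only. Among counts of 1 to 20, 64.1% were even in the control and 63.3% in the overexpression library. On simulated counts with counting error only, 95.4% of intervals held the simulated ratio. Those counts meet the intervals' own assumption, so this checked the calculation and not how well the intervals suit these libraries. Every member was to be named, with the 3 genes furthest from 0 in each other list, except that a gene in these lists is not reported here. Members and lists were chosen with earlier results of these data known. The roles, the promoter motif (from general knowledge of the element), the classes by count and FPKM, and the ranks among the 500 nearest genes were set after the values were seen, and carry no test. Gene positions, shared exon bases and shared 31-base words came from GENCODE 29 (GRCh38) and promoters from RefSeq (GRCh38.p14). Alternatives were library totals, DESeq2 1.42.0 size factors, added constants, FPKM, other minimums and thresholds, and removal of a length trend. Other software was Python 3.11.15, numpy 2.4.6, pandas 2.3.3, scipy 1.17.1 and matplotlib 3.10.9.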

Additional observations from a re-analysis of the deposited data

How the results depend on the processing

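No paired analysis was possible because each group has 1 library, and leaving out a replicate was not possible for the same reason. The median log2 ratio of the measured members, 0.16, ranged from 0.09 (5 CPM added, or the trend over gene length removed) to 0.16 (DESeq2 size factors) over its alternatives, and was 0.14 without SAMD9 and SAMD9L and 0.16 without the 7 measured members that share at least 20% of exon bases or words with another gene, both chosen after seeing the data. The 4 members at least 1.5-fold higher became 2 with 1 CPM added (1.02% of all genes) and 1 with 5 CPM added (0.445%). They became 9 at a ratio of 5 to 4 (8.51%) and 1 at 2-fold (0.982%). The 0 members at least 1.5-fold lower became 1 with every gene that has a count in each library (11.9% of all genes) and 1 at a ratio of 4 to 5 (7.58%). With 5 CPM added, SAMD9 stood at 1.39 and SAMD9L at 1.56, against 2.59 and 1.95, and OAS2 at 1.21, against 1.55 and under its counting interval. OAS2 also fell under 1.5-fold, to 1.48, with the length trend removed. All other alternatives left these counts within 1.5 times and SAMD9 and SAMD9L within their counting intervals. With the length trend removed, 4 of the other 36 members left their counting intervals, ADAR at 1.03, EIF2AK2 at 1.15, PARP14 at 1.13 and TRIM25 at 0.938. Depth limits the members under about 100 counts, where ratios of 0.758 and 1.54 had intervals that included 1.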

Other observations

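Several interferon-stimulated genes outside the chosen 44 also had few counts. Over the whole series, 14157 of 28038 genes had 50 or more counts over both libraries, as did 48 of the 60 listed genes of the wider list. The other 12 had fewer. Among them TRIM22, a ligase that restricts retroviruses, had 10 counts in the control and 0 in the overexpression library, the chemokine gene CXCL10 2 and 0, GBP4 6 and 12, and GBP5 0 and 2. CXCL11, the chemokine that binds the same receptor as CXCL10, had 168 and 213 counts, a ratio of 1.15 (0.933 to 1.41). TRIM26 and TAP2, which lie in the MHC region of chromosome 6, had 2 and 2 counts and 5 and 3 counts. How reads shared by several genes or by alternate copies of a region were counted is not given in the sources used here, so a low count and a lack of transcript cannot be told apart in these genes.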
